A study of Homo sapiens with 15 samples.

Results

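The comparison described here sets 1 small RNA library, labelled HDM media, against 1 library labelled regular media, and its members are the 357 of 1619 miRNA entries that had 50 or more counts in either library. Both libraries carry the cell line label DiFi, a human colorectal cancer line, and the study was set up to try culture conditions for collecting the extracellular small RNA that such cells secrete. The labels give no treatment, time or medium composition, do not spell out HDM, and do not say whether the RNA of these libraries came from conditioned medium or from cells. The extraction text, which is the same for every sample, speaks of extracellular samples, a miRNeasy extraction and NEXTflex small RNA libraries. The series lists 15 samples, of which 14 are in the count table. The other 12 are a cell pellet, plates 1 to 3, an unfiltered HDM and a filtered HDM library for each of HF6 and HF7, names that are also not spelled out. The sample of HDM media without cells is not analysed here, so miRNAs brought by the medium itself were not measured. With 1 library in each condition there is no replicate check, and no p-value is given for any difference between them.

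A miRNA is a short RNA cut from one arm (5p or 3p) of a hairpin precursor and loaded into an Argonaute protein, where its seed, bases 2 to 8, pairs with target messages. Usually the precursor yields a more abundant arm and a less abundant one. Cells release miRNAs inside vesicles, bound to proteins and in other carriers, and gut epithelial cells are rich in the miR-200 family, which guards the epithelial state, and in miR-192 and miR-194.

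The mature sequences on which the results turn are written 5′ to 3′ with the seed in capitals. They come from RefSeq (GRCh38.p14), which matched 322 of the 357 members by name. The miR-200 family is shown because the miRNAs of its 2 genomic loci had different ratios between the libraries, although they share seeds across the loci.
miR-141-3p: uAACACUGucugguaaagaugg
miR-200a-3p: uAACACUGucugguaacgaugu
miR-200c-3p: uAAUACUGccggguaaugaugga
miR-200b-3p: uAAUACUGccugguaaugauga
miR-429: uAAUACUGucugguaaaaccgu

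Counting positions from 1 at the 5′ end, miR-141-3p differs from miR-200a-3p by A17C and G22U. miR-200c-3p differs from miR-200b-3p by G11U and G22A and ends with 1 further base, an A. The let-7 miRNAs are shown because let-7b-5p stood apart from the rest of a family that shares 1 seed.
let-7b-5p: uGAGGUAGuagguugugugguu
let-7c-5p: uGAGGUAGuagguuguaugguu
let-7a-5p: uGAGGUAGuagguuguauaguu

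Here let-7b-5p differs from let-7c-5p by G17A alone and from let-7a-5p by G17A and G19A. The pair miR-590-5p and miR-21-5p shows a rare and a very abundant miRNA with 1 seed, and miR-193b-3p and miR-193a-3p are another pair with a shared seed.
miR-590-5p: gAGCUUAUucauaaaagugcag
miR-21-5p: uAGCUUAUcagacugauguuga
miR-193b-3p: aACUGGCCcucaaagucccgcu
miR-193a-3p: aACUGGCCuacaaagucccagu

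The last set holds miRNAs at least 2-fold apart between the libraries that are described in most detail, and miR-15a-5p with miR-16-5p, which come from 1 hairpin cluster.
miR-3679-5p: uGAGGAUAuggcagggaagggga
miR-1247-5p: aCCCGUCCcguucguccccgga
miR-326: cCUCUGGGcccuuccuccag
miR-19b-1-5p: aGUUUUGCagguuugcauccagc
miR-4485-3p: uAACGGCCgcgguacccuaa
miR-15a-5p: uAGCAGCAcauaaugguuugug
miR-16-5p: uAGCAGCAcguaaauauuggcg

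The HDM media library held 4811447 counts and the regular media library 4896931. Values are given as CPM, the count divided by the total of its library on a common scale, for which 3 counts, taken as the floor for an entry without reads, correspond to 0.624 and 0.613 CPM. The 357 members held 99.88% and 99.90% of the counts. Both libraries were led by miR-21-5p, with 146489 CPM in HDM media and 163739 CPM in regular media, and the 10 most abundant miRNAs took 52.0% and 54.4% of the counts. Across members, each with 1 CPM added, the log2 CPM of the libraries correlated with r = 0.992 (n = 357).

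With scaling by the total counts, the miRNA profiles of HDM media and regular media differed less among miRNAs of 1000 CPM or more than among rarer ones. Among the rarer ones most ratios were then above 1. At least 2-fold apart were 29 of 357 members (8.12%), of which 27 were higher in HDM media (7.56%) and 2 lower (0.56%). The ratio, HDM media over regular media, was above 1 for 263 members and below 1 for 94. Its median was 1.18, or 0.24 on the log2 scale, the middle 50% of members lay between -0.02 and 0.54, and 155 members were within 1.2-fold. The direction of small ratios depends on the scaling. Trimmed-mean (TMM) factors divide every ratio by 1.15 and median-of-ratios factors by 1.18, which leaves 195 and 181 members above 1. TMM gave 13 at least 2-fold higher and 5 lower, and median-of-ratios 12 and 5, with every higher call among the 27. A ratio below 1 or above 1.18 keeps its direction under each scaling tried, and a ratio between 1 and 1.18 may not.

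**Figure D1:**
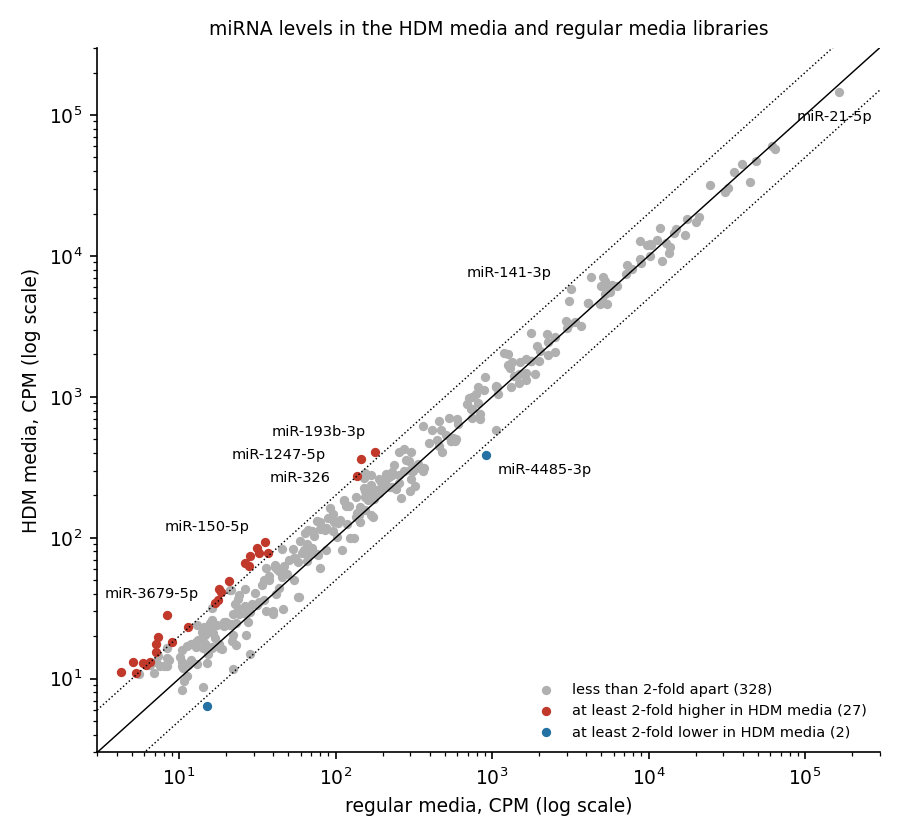
Level of each of the 357 miRNAs in regular media (x axis, CPM, log scale) and HDM media (y axis, CPM, log scale), 1 library each, 1 point per miRNA, with lines at equal levels and at 2-fold. The points follow the diagonal above 1000 CPM, and 27 points at lower levels lie above the upper line against 2 below the lower one.

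The 27 miRNAs at least 2-fold higher in HDM media were rare. Their level in HDM media ran from 11 to 405 CPM with a median of 36.2, only 3 reached 100 CPM there, and together they made up 0.198% of HDM media counts and 0.0857% of regular media counts. The 95% interval of the ratio, exact from the 2 counts, lay wholly above 2 for 8 of them. Because neither condition has a replicate library, the interval covers counting error only and not variation between libraries. The counts also come without molecular identifiers. Of the 27, 16 had 50 or more counts in both libraries and 11 only in HDM media, and 8 had ratios from 2 to under 2.1, where a few counts decide the call.

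The 3 more abundant ones were miR-193b-3p, miR-1247-5p and miR-326. miR-193b-3p, a growth-restraining miRNA of the miR-193 family encoded at chr16:14304017-14304038 (GRCh38, as all coordinates here, + strand) in an intron of MIR193BHG, measured 405 CPM in HDM media (1947 counts) and 180 CPM in regular media (880 counts), a ratio of 2.25 (95% interval 2.08 to 2.44). Across the other 12 libraries it ran from 77.9 to 323 CPM with a median of 258, so the HDM media value lay above all of them and the regular media value within them. miR-193a-3p, which shares its seed, was rarer by far, with 10.8 CPM in HDM media and 5.51 CPM in regular media, a ratio of 1.96 (1.21 to 3.25).

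miR-1247-5p, encoded at chr14:101560362-101560383 (- strand) in an exon of the noncoding RNA DIO3OS, measured 360 CPM in HDM media (1730 counts) and 146 CPM in regular media (714 counts), a ratio of 2.47 (2.26 to 2.69). Both values stood far above plates and pellets, where it ran from 6.79 to 39.6 CPM. In filtered and unfiltered HDM from HF6 and HF7 it ran from 219 to 334 CPM. Regular media thus lay between the plate and pellet libraries and the HDM libraries, and HDM media above both.

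miR-326, encoded at chr11:75335108-75335127 (- strand) in an intron of ARRB1, measured 276 CPM in HDM media and 137 CPM in regular media, a ratio of 2.02 (1.84 to 2.22). The other 12 libraries ran from 7.31 to 105 CPM, so both media libraries lay above all of them. It was 102 and 105 CPM in the unfiltered HDM libraries, next in order below regular media.

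miR-3679-5p, encoded at chr2:134127130-134127152 (+ strand) in an intron of MGAT5, had the highest ratio of all members, 3.38 (2.37 to 4.91), from 136 counts in HDM media (28.3 CPM) and 41 counts in regular media (8.37 CPM). Regular media sat near the 8.69 CPM median of the other libraries, whose highest value, 25.7 CPM, was in HF6 unfiltered HDM. miR-150-5p, a miRNA of mature lymphocytes encoded at chr19:49500832-49500853 (- strand), measured 93.5 CPM in HDM media (450 counts) and 35.3 CPM in regular media (173 counts), a ratio of 2.65 (2.22 to 3.17). It was under 5 CPM in every plate and pellet library and between 47.3 and 75.4 CPM in the filtered and unfiltered HDM libraries of HF6 and HF7. As for miR-1247-5p, regular media lay between those 2 sets of libraries.

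The less abundant arm of a miR-17-92 hairpin, miR-19b-1-5p, at chr13:91351207-91351229 (+ strand) in an exon of MIR17HG, measured 74.2 CPM in HDM media and 28.4 CPM in regular media, a ratio of 2.61 (2.14 to 3.20), against 11 to 44.8 CPM elsewhere. Both arms of the miR-574 hairpin in an intron of FAM114A1 were among the 27. The 5p arm had 376 and 158 counts, a ratio of 2.42, and the 3p arm 375 and 180 counts, a ratio of 2.12, so the arms kept nearly equal counts in each library. miR-940 had 319 and 129 counts, a ratio of 2.52 (2.05 to 3.11).

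Among the rest of the 27, miR-10401-3p had 407 and 154 counts, a ratio of 2.69, and miR-664b-3p, inside the small nucleolar RNA SNORA36A, had 95 and 36 counts, also a ratio of 2.69. Its relative miR-664a-3p, inside SNORA36B, had 304 and 138 counts, a ratio of 2.24. The other 15 were miR-590-5p, miR-4488, miR-1249-3p, miR-625-5p, miR-2110, miR-1268b, miR-4446-3p, miR-4286, miR-9-3p, miR-3180-5p, miR-33a-3p, miR-589-5p, miR-99a-3p, miR-135b-3p and miR-190a-3p, with ratios from 2.0 to 2.62 and counts in regular media between 21 and 102. miR-1268b is within 1 mismatch of miR-1268a, and miR-10401-3p, miR-9-3p and miR-3180-5p have more than 1 genomic location, so that reads of these 4 cannot be assigned to 1 gene with certainty. In an intron of an annotated gene on the same strand lie 18 of the 27 (66.7%), beside 61.9% of all members. HDM media lay above all other 12 libraries for 14 of the 27, which were chosen for high HDM media values, and for 83 of all 357 members. Regular media lay within the range of the other libraries for 92.6% of the 27 and 92.7% of all members.

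**Figure D2:**
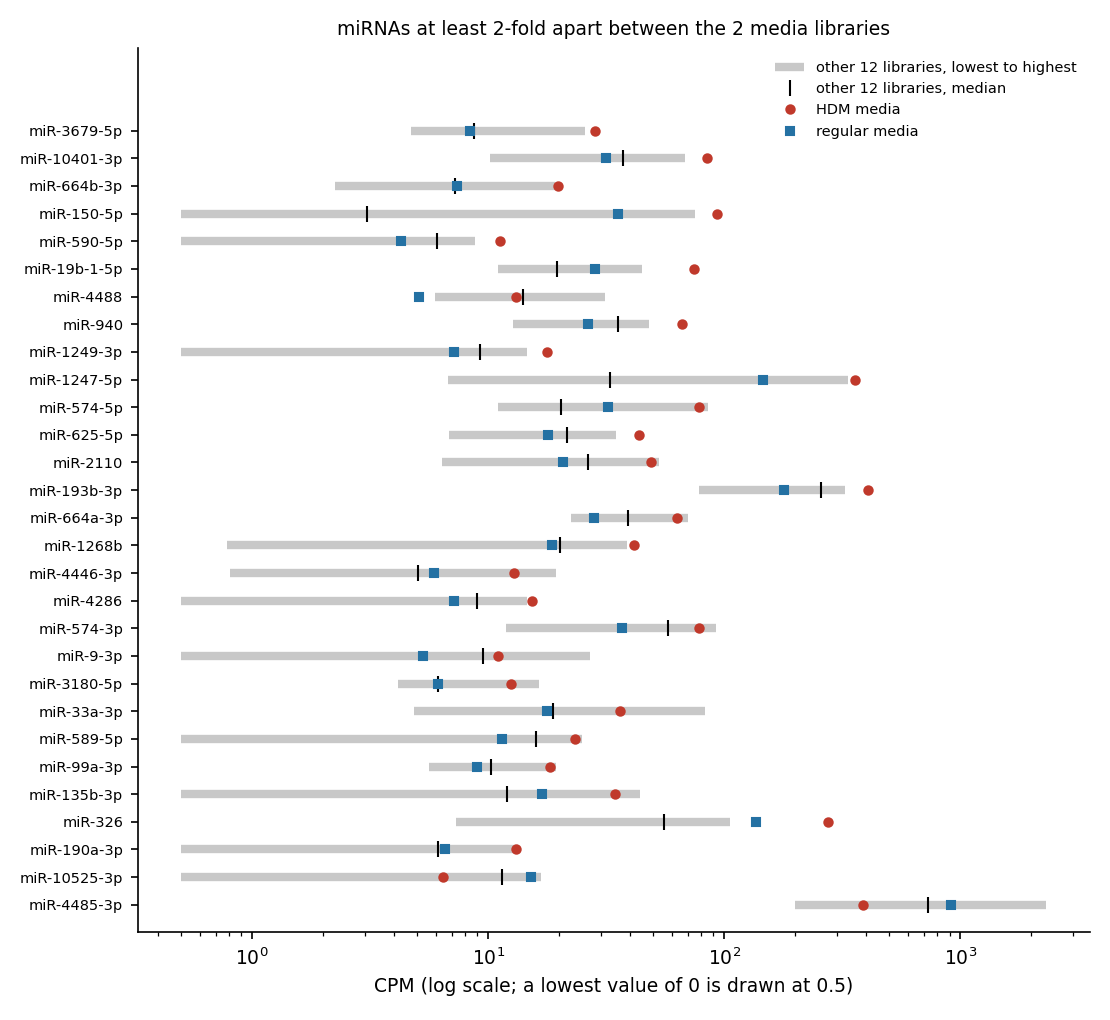
Levels (x axis, CPM, log scale) of the 29 miRNAs at least 2-fold apart, 1 row per miRNA, with HDM media and regular media as points and the lowest to highest value of the other 12 libraries as a bar. The regular media points mostly fall inside the bars, and for 14 of the 27 higher miRNAs the HDM media point lies to the right of the bar.

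With scaling by the total, miR-4485-3p and miR-10525-3p were at least 2-fold lower in HDM media, and with TMM or median-of-ratios scaling miR-4485-5p, miR-126-3p and miR-374a-3p joined them. miR-4485-3p, at chr11:10508277-10508296 (- strand), lies in an exon of MTRNR2L8, a nuclear sequence resembling mitochondrial ribosomal RNA, and measured 387 CPM in HDM media (1862 counts) and 908 CPM in regular media (4448 counts), a ratio of 0.426 (0.403 to 0.450). The other libraries ran from 200 to 2316 CPM with a median of 727, and both media values lay within them. The opposite arm, miR-4485-5p, went the same way, with 72 and 139 counts and a ratio of 0.527 (0.391 to 0.706). miR-10525-3p had 31 counts in HDM media and 74 in regular media, a ratio of 0.426 (0.271 to 0.657). Next in order was miR-126-3p, a miRNA of endothelial cells in an intron of EGFL7, with 56 and 108 counts and a ratio of 0.528 (0.459 with TMM scaling).

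None of the 88 miRNAs with 1000 CPM or more in either library reached 2-fold with scaling by the total, and miR-374a-3p did so with TMM or median-of-ratios scaling. Their ratios ran from 0.548 to 1.82, 52 were above 1, 7 were at least 1.5-fold higher in HDM media and 1 was at least 1.5-fold lower.

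The highest ratio among them was that of miR-141-3p of the miR-200 family, with 5820 CPM in HDM media and 3195 CPM in regular media, a ratio of 1.82 (1.79 to 1.86). miR-15a-5p, a tumour-suppressor miRNA in an intron of DLEU2, followed with 2050 and 1201 CPM, a ratio of 1.71 (1.65 to 1.76). Its cluster partner miR-16-5p, with the same seed and a second locus elsewhere, had 15463 and 15009 CPM, a ratio of 1.03, so the partners differed. let-7b-5p had 7133 and 4292 CPM, a ratio of 1.66 (1.63 to 1.69). For both miR-15a-5p and let-7b-5p the HDM media value lay above all other 12 libraries, whose highest values were 1271 and 6588 CPM. miR-142-3p, miR-22-3p, miR-320a-3p and miR-29b-3p followed with ratios of 1.60, 1.60, 1.55 and 1.52.

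At the other end, miR-374a-3p, in an intron of FTX, measured 579 CPM in HDM media and 1056 CPM in regular media, a ratio of 0.548 (0.523 to 0.574) that is 0.476 with TMM and 0.465 with median-of-ratios scaling. miR-7-5p, a regulator of growth factor signalling and among the 10 most abundant miRNAs of both libraries, had 33573 and 44464 CPM, a ratio of 0.755 (0.750 to 0.760). miR-203a-3p, which promotes epithelial differentiation, had 9221 and 12181 CPM, a ratio of 0.757. For both, HDM media lay below the lowest of the other 12 libraries, 35128 and 10407 CPM, and regular media inside their range. miR-429 of the miR-200 family had 10494 and 13511 CPM, a ratio of 0.777, and miR-98-5p of the let-7 family 1458 and 1874 CPM, a ratio of 0.778.

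The miR-200 family summed to 138114 CPM in HDM media and 139035 CPM in regular media, both under the lowest sum in the other libraries, 148712 CPM. The 3p miRNAs of its chromosome 12 and chromosome 1 loci had ratios on opposite sides of 1. From the chromosome 12 locus in MIR200CHG, miR-200c-3p had 31990 CPM in HDM media and 24607 CPM in regular media, a ratio of 1.3, and miR-200c-5p, miR-141-5p and miR-141-3p had ratios of 1.41, 1.47 and 1.82. From the chromosome 1 locus, miR-200b-3p had 57519 and 63792 CPM, a ratio of 0.902, miR-200a-3p 30402 and 32253 CPM, a ratio of 0.943, and miR-429 a ratio of 0.777. Thus miR-141-3p and miR-200a-3p, with 1 seed and 2 base differences, had ratios of 1.82 and 0.943. The 5p arms of miR-200a and miR-200b, both at 1.10, are above 1 only with scaling by the total counts or by the total without the most abundant miRNAs.

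Of the 9 let-7 miRNAs, 6 had ratios below 1 and the family median was 0.913, with a range from 0.778 for miR-98-5p to 1.66 for let-7b-5p. let-7a-5p had 18883 CPM in HDM media and 21100 CPM in regular media, a ratio of 0.895, and let-7c-5p, 1 base from let-7b-5p, 1178 and 1069 CPM, a ratio of 1.10. With TMM or median-of-ratios scaling let-7b-5p was alone above 1. The family sum was 7.92% of counts in HDM media and 8.43% in regular media.

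The miR-17-92 cluster and its paralogs, growth-promoting miRNAs often raised in colorectal tumours, had ratios above 1 for 17 of 17 listed members and above the median of all members for 13. Over all members 263 of 357 were above 1, and the miR-29, miR-181, miR-320, hypoxia and leukocyte lists were also wholly above 1. With median-of-ratios scaling 14 of the 17 were above 1, beside 181 of all 357 members. The ratios of the 17 ran from 1.12 for miR-19a-3p to 1.71 for miR-106a-5p, and none of the 17 was 2-fold apart. The list leaves out miR-19b-1-5p, a less abundant arm of the same cluster, whose ratio was 2.61. miR-17-5p had 12807 CPM in HDM media and 8822 CPM in regular media, a ratio of 1.45 (1.43 to 1.47), and miR-92a-3p 44802 and 39331 CPM, a ratio of 1.14. The list summed to 120860 CPM in HDM media and 99066 CPM in regular media, against 48576 to 102970 CPM in the other libraries.

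All 6 listed members of the miR-29 family were above 1, as were 263 of all 357 members. The 6 ran from 1.11 for miR-29a-3p to 1.76 for miR-29a-5p, and 5 of them were above 1 with median-of-ratios scaling. The list of the miR-320 family and other miRNAs made without Drosha, the nuclear enzyme that cuts most precursors, held 6 members with a median ratio of 1.60. Their ratios ran from 1.17 for miR-484, which falls below 1 with median-of-ratios scaling, to 1.83 for miR-877-5p, at 83.1 CPM in HDM media and 45.5 CPM in regular media. The gut epithelial list held 5 members. miR-192-5p had 47462 and 48505 CPM, a ratio of 0.979, miR-194-5p 60701 and 61826 CPM, a ratio of 0.982, and miR-215-5p 502 and 588 CPM, a ratio of 0.854 (0.809 to 0.902). The less abundant arm miR-192-3p had 185 and 114 CPM, a ratio of 1.63 (1.46 to 1.81). With scaling by the total the list's main arms were thus within 1.2-fold and this arm was not. With median-of-ratios scaling miR-192-5p, miR-194-5p, miR-215-5p and miR-192-3p were at 0.830, 0.833, 0.725 and 1.38.

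Markers of other cell types were few. Of 7 leukocyte miRNAs 5 were members, all above 1, as were 263 of all 357 members. The 5 ran from 1.14 for miR-155-5p to 2.65 for miR-150-5p, with 4 above 1 under TMM or median-of-ratios scaling. Their summed level was 4438 CPM in HDM media and 2883 CPM in regular media, within the 1738 to 8004 CPM of the other libraries, and it came mostly from miR-142-3p, at 2839 and 1775 CPM. miR-342-3p of the list was under the minimum and went the other way, with 5 counts in HDM media and 9 in regular media. miR-223-3p, the myeloid miRNA of the list, had no count in either library, which allows up to 0.624 and 0.613 CPM. miR-143-3p of smooth muscle and miR-486-5p of red cells were also at 0 in both. The erythroid miR-451a had 7 and 11 counts, the liver miRNA miR-122-5p 4 and 2, and the muscle miRNA miR-1-3p 11 and 40. Whether cells or serum of another kind had a part in the leukocyte ratios was not tested.

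Over all 357 members 7.56% were at least 2-fold higher, and in lists this short a few calls do not stand apart from that share. In the list of colorectal tumour miRNAs, 2 of 12 members were at least 2-fold higher, miR-625-5p and miR-135b-3p, and 5 were above the median of all members. Of the 20 members that overlap other RNA classes, 3 were at least 2-fold higher and 1, miR-4485-3p, lower. Of the 6 neural miRNAs 1 was higher, miR-9-3p, with 53 and 26 counts. miR-210-3p, the main hypoxia-induced miRNA, had 147 CPM in HDM media and 96.6 CPM in regular media, a ratio of 1.52 (1.35 to 1.71). miR-1246, an extracellular RNA fragment related to the U2 small nuclear RNA, had 236 and 168 CPM, a ratio of 1.40 (1.28 to 1.54), and both values lay in the lower part of the 192 to 6956 CPM of the other libraries or under it.

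**Figure D3:**
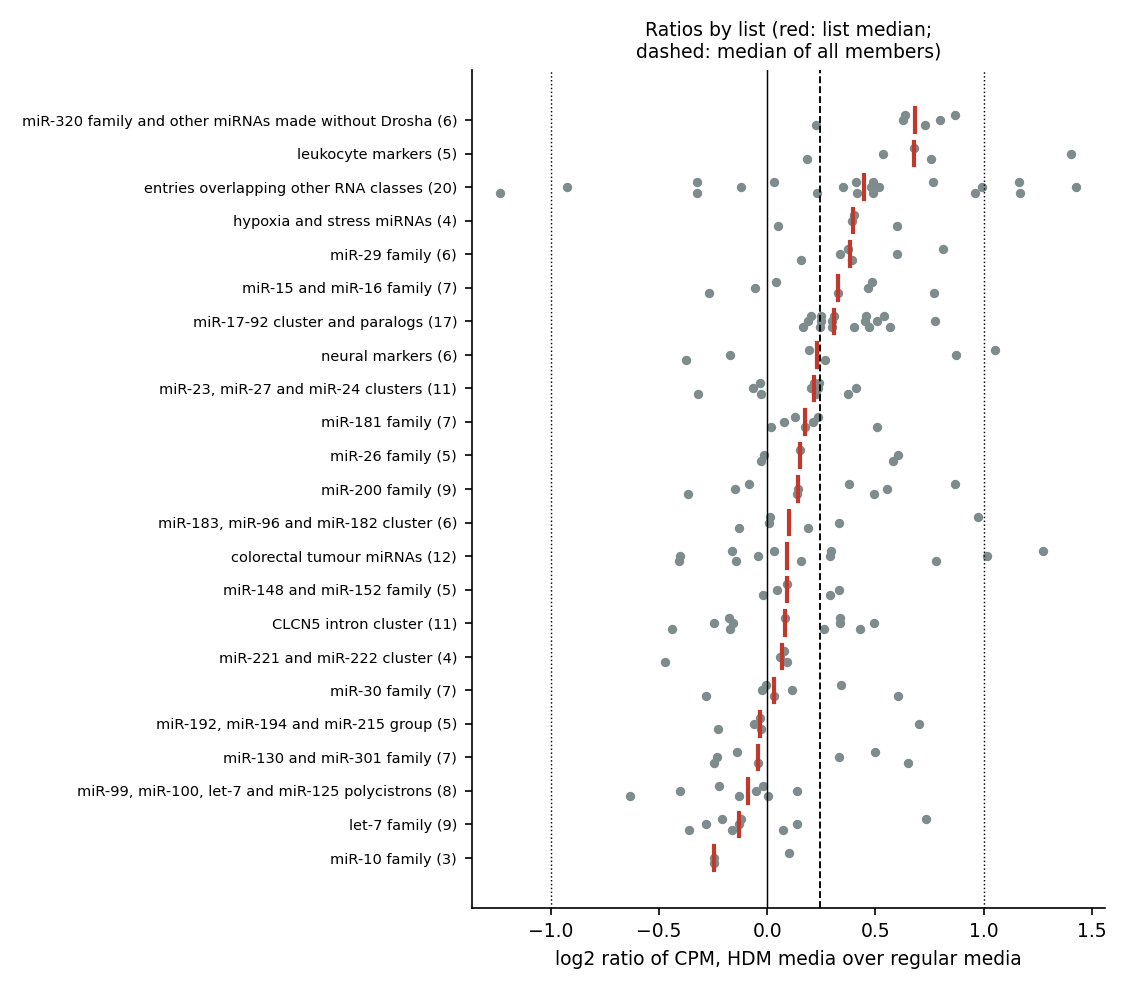
Log2 ratio of CPM, HDM media over regular media (x axis), for the members of each miRNA list (1 row per list, number of members in brackets), with the list median in red and the median of all members, 0.24, as a dashed line. The miR-17-92 list lies wholly to the right of 0, as do the miR-29, miR-181, miR-320, hypoxia and leukocyte lists. The let-7 list has 1 member, let-7b-5p at 1.66-fold, set apart from the rest.

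Among the members, 46 seeds were held by more than 1 miRNA (122 members in all). Of these 122, 5 were at least 2-fold higher (4.1%, beside 7.56% of all members), each with a different seed. Some of their partners had ratios near theirs and some did not. miR-193a-3p was at 1.96 beside miR-193b-3p at 2.25, miR-1268a at 1.95 beside miR-1268b at 2.24, and miR-330-5p at 1.64 beside miR-326 at 2.02. miR-579-3p was at 0.924 beside miR-664b-3p at 2.69, and miR-21-5p at 0.895 beside miR-590-5p, whose ratio of 2.62 (1.55 to 4.56) rests on 54 and 21 counts.

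The arms of a hairpin share a precursor, and their count ratio within a library does not depend on the scaling. In 101 hairpins both arms were members. The less abundant arm had the higher HDM media over regular media ratio in 65 of them and the more abundant arm in 36. The median log2 ratio was 0.35 for less abundant arms and 0.15 for more abundant ones, and the median difference within a hairpin was 0.16. In 4 hairpins the arms were at least 2-fold apart in ratio, and in each of these the less abundant arm reached 50 counts in HDM media only, a condition that itself favours such a difference. Among the 90 hairpins with 50 or more counts of both arms in both libraries, a limit chosen after seeing the data, none was 2-fold apart. The less abundant arm there had the higher ratio in 56 and the more abundant arm in 34, with a median difference of 0.15.

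In miR-590 the 3p arm outnumbered the 5p arm 36.2 to 1 in HDM media and 111 to 1 in regular media, a 3.06-fold difference that rests on 54 and 21 counts of the 5p arm. In miR-99a, the 5p arm led the 3p arm 108 to 1 and 255 to 1, a 2.37-fold difference on 88 and 44 counts of the 3p arm. miR-3613, with 53 and 34 counts of its 3p arm, and miR-190a, with 63 and 32, followed at 2.21-fold and 2.1-fold. The best-counted case was miR-21, whose passenger arm miR-21-3p had 2988 counts in HDM media and 1770 in regular media while miR-21-5p had 704826 and 801820. Its 5p to 3p ratio was 236 (228 to 245) in HDM media and 453 (432 to 475) in regular media, a 1.92-fold difference with intervals that do not overlap. let-7i differed by 1.96-fold in the same direction, towards its passenger arm in HDM media.

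**Figure D4:**
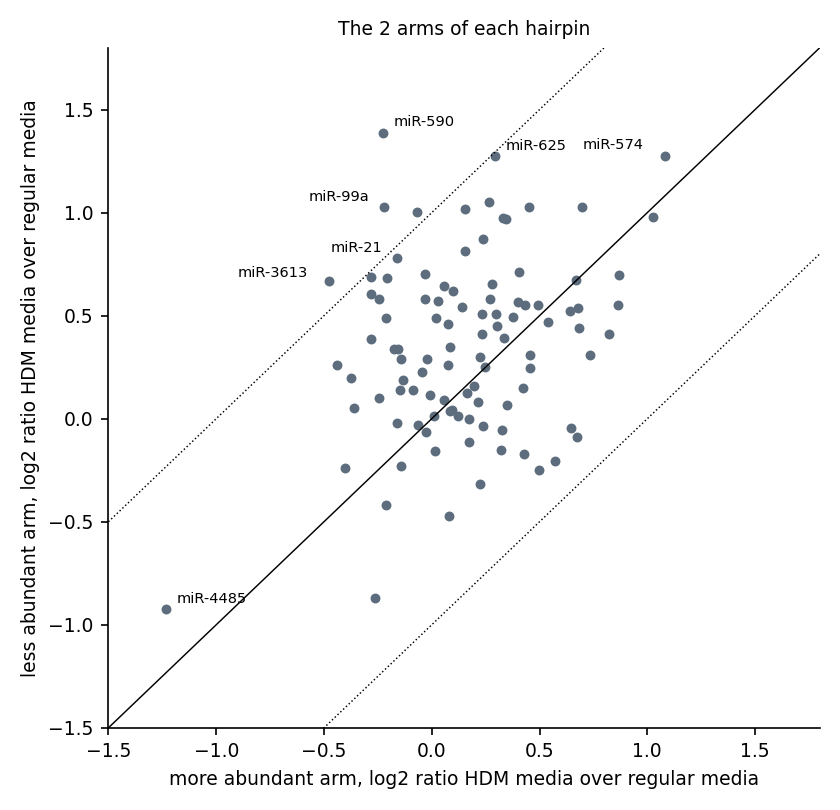
Log2 ratio of CPM, HDM media over regular media, of the more abundant arm (x axis) and the less abundant arm (y axis) of 101 hairpins, 1 point per hairpin, with the line of equal ratios. The less abundant arm lies above the line in 65 hairpins, with miR-590 the farthest from it at 3.06-fold on 54 and 21 counts of its rarer arm.

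The ratio varied with abundance and with base composition. Below a mean of 20 CPM the median log2 ratio was 0.53 (66 miRNAs, 12 of them at least 2-fold higher), from 20 to under 100 CPM it was 0.39 (97 miRNAs, 12 higher), from 100 to under 1000 CPM it was 0.23 (109 miRNAs, 3 higher), and from 1000 CPM it was 0.06 (85 miRNAs, none higher). The lowest of these sets holds all 27 miRNAs with 50 counts in only 1 library, 23 of them in HDM media, so its values are partly set by the minimum. Over the 39 with 50 counts in both libraries its median was 0.26 with 1 at least 2-fold higher, and the other sets did not change. By G and C content of the mature sequence, the median log2 ratio was 0.02 under 40%, 0.18 from 40% to under 50%, 0.30 from 50% to under 60% and 0.47 from 60% (76, 120, 97 and 64 miRNAs). All these medians are with scaling by the total, and TMM or median-of-ratios factors lower each by 0.20 or 0.24. The median of the set from 1000 CPM then becomes negative. Across the 357 miRNAs the log2 ratio correlated with G and C content at r = 0.35 (Spearman 0.36). With the log2 of the mean CPM it correlated at r = -0.32 (Spearman -0.35), and these points share 2 libraries. Over the 330 miRNAs with 50 counts in both libraries these r were 0.39 and -0.26. The 27 higher miRNAs had a median G and C content of 56.5% against 47.6% for all members. Length did not separate them, with a median of 22 bases in both. Whether base composition or depth had a part in any single ratio was not tested.

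The same count was made in 6 pairs of libraries whose labels differ only in HF7 against HF6, which share no library with the media pair. At least 2-fold apart were 29.1% of miRNAs in the cell pellets, 0.971% in plate 1, 1.22% in plate 2, 3.41% in plate 3, 4.98% in unfiltered HDM and 0.699% in filtered HDM. The 8.12% of the media pair is thus above 5 of the 6 pairs and below the pellets, 1 of which held only 313398 counts. This order depends on the scaling. After division by the median ratio of each pair, a scaling added after seeing the data, the media share was 4.76%, under the 6.05% of unfiltered HDM and the 29.8% of pellets and above the 0.699% to 4.02% of the other 4. With a minimum of 200 counts in either library the shares were 5.53% for media, 20.1% for pellets and at most 1.45% for the other 5 pairs. The SD of log2 ratios was 0.456 for media, 1.01 for pellets and between 0.283 and 0.452 for the others, so in spread the media pair lay close to the unfiltered HDM pair, which includes a library of 205747 counts. The correlation of ratio with G and C content was 0.46 in plate 3, 0.14 in pellets and between -0.03 and 0.11 in the other 4 pairs.

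**Figure D5:**
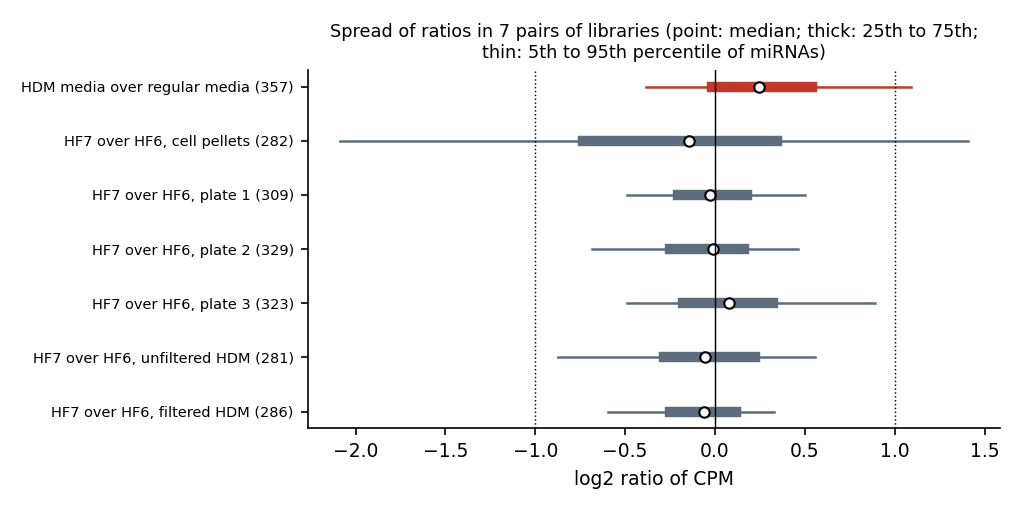
Spread of log2 ratios of CPM (x axis) over the miRNAs with 50 or more counts in either library, for the media pair and for the 6 pairs of HF7 over HF6, with the median as a point and percentile ranges as thick and thin lines. The media pair has its median furthest above 0, at 0.24, and the cell pellets the widest spread, with an SD of 1.01.

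At the minimum of 50 counts that chose the members, those just inside were miR-10527-5p with 40 counts in HDM media and 51 in regular media, miR-193a-3p with 52 and 27, and miR-3613-3p with 53 and 34. Just outside were miR-3173-5p with 36 and 49 counts, miR-548aj-3p with 22 and 49, and miR-4492 with 49 and 9.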

How the data were processed

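Small RNA of 14 libraries was analysed, 1 of them HDM media and 1 regular media. The authors deposited expected counts for each mature miRNA, without normalization. Per the submitters' processing notes, cutadapt 2.10, Bowtie 1.3.1, FastQC and GRCh38 were used. How fractional counts arose, which miRNA annotation was used and whether entries were filtered is not given in the sources used here. Counts were rounded to whole numbers and divided by each library's total (205747 to 4896931 over the 14 libraries). Ratios were HDM media over regular media, with exact (Clopper-Pearson) 95% intervals from the 2 counts, in Python 3.11.15 with scipy 1.17.1, and called at 2-fold with a minimum of 50 counts in either library. edgeR 4.0.16 gave only the TMM and median-of-ratios factors of alternative scalings. The ratio and interval code was tested on simulated data. Coordinates are GRCh38, and host genes come from GENCODE release 29.

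The members and the 26 lists were chosen with earlier results of these data known. miRNAs were named by rank in CPM (10 in each library), by ratio (15 at each end, and 8 at each end from 1000 CPM), by list (up to 6 by level, and any at least 2-fold apart), by arm difference (6 hairpins) and by nearness to the minimum (3 on each side), besides a short fixed list. Other scalings, minimums, folds and entry sets were tried.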

Additional observations from a re-analysis of the deposited data

How the results depend on the processing

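No paired analysis was possible because each condition has 1 library and no result comes from a test. The 27 higher and 2 lower miRNAs and the median log2 ratio of 0.24 moved as follows. TMM scaling gave 13 higher, 5 lower and a median of 0.0398, and median-of-ratios scaling 12, 5 and 0.0048. With the 10 most abundant miRNAs of each library left out of the totals, 19 were higher and 2 lower, and the median was 0.17. A minimum of 20 counts gave 50 higher and 8 lower, a minimum of 200 counts 13 and 1, and 50 counts in both libraries 16 and 1. Calling at 1.5-fold gave 79 and 8, and at 3-fold 1 and 0. Without entries overlapping other RNA classes 1 was lower. Keeping fractional counts, a pseudocount of 1, or leaving out near-identical and multi-location entries moved neither count by over 1.5 times. A minimum of 50 counts in both libraries took the hairpins with arms 2-fold apart from 4 to 0. Counting error is largest for the rare miRNAs. Among the 27, 11 had under 50 counts in regular media and were members only through their HDM media counts.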

Other observations

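Among members with 1 genomic location, 112 fell into 27 clusters whose neighbours lie within 10 kb on 1 strand. In 9 clusters every member had a ratio above 1 and in 2 every member was below 1. With median-of-ratios scaling these numbers were 4 and 6. The 4 that stayed wholly above 1 were miR-18b with miR-106a on chromosome X, miR-200c with miR-141 in MIR200CHG, miR-195 with miR-497, and miR-25, miR-93 and miR-106b in an intron of MCM7, whose 6 members ran from 1.23 to 1.42. The 2 wholly below 1 under total scaling were miR-421 with miR-374b in an intron of FTX (0.748 to 0.996) and miR-99b, let-7e and miR-125a in an intron of SPACA6 (0.645 to 0.913). miR-125a-5p had 37.8 CPM in HDM media and 58.6 CPM in regular media, a ratio of 0.645 (0.533 to 0.780).

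HDM media lay outside the range of the other 12 libraries for 95 of 357 members (83 above and 12 below), and regular media for 26 (18 above and 8 below). Under median-of-ratios factors of all 14 libraries, chosen after seeing the data, these were 81 (48 and 33) and 22 (17 and 5), and against the 10 other libraries of over 1000000 counts, also chosen after seeing the data, 114 and 30. Among the abundant ones, miR-17-5p had 12807 CPM in HDM media against a highest value of 9966 CPM elsewhere, and miR-106b-5p 7042 CPM against 6547 CPM. The 2 media libraries hold more counts than any of the others.

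The log2 ratio of HDM media over regular media was set beside comparisons that share no library with it. Across the 357 members it correlated with unfiltered HDM over plates at r = 0.38 and with filtered HDM over plates at r = 0.26, and with the same libraries over cell pellets at r = 0.15 and 0.09. Over the 194 members with a mean of 100 CPM or more these r were, in the same order, 0.40, 0.17, 0.10 and -0.0001. With filtered over unfiltered HDM r was -0.16 over all members and -0.32 over the 194. Against plates 2 and 3 alone, or plate 1 alone, both choices made after seeing the data, r for unfiltered HDM was 0.37 and 0.29. These points share base composition and depth. Of the 27 higher miRNAs, 88.9% were also above 1 in unfiltered HDM over plates, beside 66.7% of all members, and 81.5% in filtered HDM over plates, beside 61.6%. Over cell pellets the shares lay closer, 81.5% beside 76.2% for unfiltered HDM and 77.8% beside 69.7% for filtered HDM.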
